A study of Mus musculus with 12 samples.

Results

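The genes described here encode the vacuolar ATPase, the cathepsins and the lysosome-associated membrane proteins, measured in mouse prefrontal cortex after repeated cocaine. They were taken by symbol, as every gene whose name starts with Atp6v or Atp6ap, or is Lamp followed by a digit from 1 to 5 or Cts followed by 1 letter. This rule named 46 genes in the deposited tables. Of these, 34 were tested by the authors' program at 1 or more time points, out of 19293 genes tested in any table. At 2 h 34 of 15851 tested genes were members, at 24 h 33 of 16246 and at 7 d 32 of 16559.

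RNA of the prefrontal cortex of C57BL/6 mice (C57BL/6 J in the study's methods), aged 10 weeks, was sequenced in 12 libraries from 6 groups. Cocaine or saline was given repeatedly, and tissue was taken 2 h, 24 h or 7 d after the last dose, with a saline control group at each time. Each group had 2 libraries, each made from the pooled cortex of 5 animals. The mice were male, according to the study's methods, and they were not followed as single animals, since each library is a pool. Each deposited table gives 1 value per gene for saline and 1 for cocaine, in FPKM, fragment counts scaled to the length of the transcript and to the number of mapped fragments, pooled by the authors over the libraries of the group. The spread between libraries and the depth behind each value are therefore unknown here, and no test, SD or n is attached to any value.

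The vacuolar ATPase is a rotary proton pump. Its cytosolic V1 sector splits ATP and turns a rotor, and its membrane-bound V0 sector carries protons into lysosomes, endosomes and, in neurons, synaptic vesicles, where the gradient drives transmitter loading. The acid lumen activates the cathepsins, proteases that break down proteins delivered to the lysosome, while heavily glycosylated LAMP proteins line the lysosomal membrane.

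Differences are given on the scale log2((cocaine FPKM + 1)/(saline FPKM + 1)), on which low values are damped. A gene is called past the fold when this ratio was at least 1.2-fold in either direction. Of the neuronal markers, 6 or 7 of 8 were tested per table, with a summed level of 3069 to 3574 FPKM, and none of the tested ones stood at 0. They show that the tissue held neurons. Being general to neurons, they cannot check the label of prefrontal cortex. The 7 d saline group stood apart from the other saline groups: across 13537 genes its level relative to theirs had a Spearman's rho of -0.45 with transcript length, so that short transcripts were higher in it. In bulk tissue, fewer cells of a type and less RNA per cell cannot be told apart.

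The members covered a wide range of levels. Over the 6 groups, 16 of the 34 had a mean above 100 FPKM and 5 had a mean below 10 FPKM. The highest was Atp6v0c, the proteolipid that forms most of the rotor ring, at 707 and 720.3 FPKM in saline and cocaine at 2 h, 732 and 759 at 24 h, then 704 and 668 at 7 d. The lowest was Atp6v1c2, an isoform of the C subunit, which was tested only at 2 h, at 0.589 FPKM in saline and 0.370 FPKM in cocaine. Pump genes thus lay at both ends of the range, and the cathepsins and LAMP genes lay between them, with means from 3.15 FPKM for Ctsk, a collagen-cutting cathepsin of bone, to 229.6 FPKM for Lamp5.

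**Figure D1:**
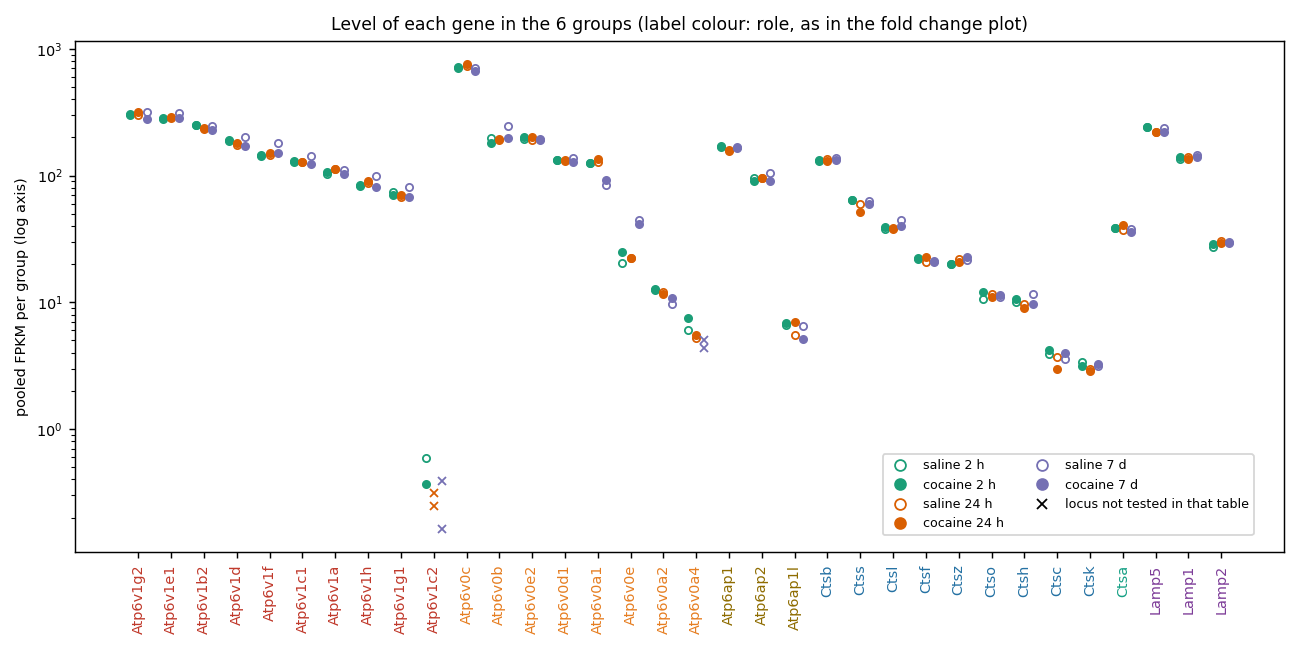
Pooled FPKM of the 34 tested genes (log axis) in the 6 groups, open circles for saline and filled circles for cocaine, coloured by time after the last dose; crosses mark loci not tested in that table. Within most genes the 6 points lie close together, from Atp6v0c at 668 to 759 FPKM down to Atp6v1c2 below 1 FPKM, and the points of Atp6v0e and Atp6v0a1 stand apart at 7 d.

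Where a subunit has several genes, 1 of them carried most of the signal. Atp6v1g2, the G subunit known as the brain form, stood at 3.90 to 4.46 times the level of the widely expressed Atp6v1g1 over the 6 groups. Atp6v0a1, the a subunit found on synaptic vesicles, stood at 8.46 to 11.7 times the level of Atp6v0a2. Atp6v0e2 stood at 8.15 to 9.54 times the level of Atp6v0e at 2 h and 24 h. These ratios compare levels per length of transcript within a table. The Atp6v0e locus at 7 d also names Bnip1 and Crebrf, so its level of 44.9 and 41.3 FPKM there is that of a merged locus, against 20.5 to 24.9 FPKM in the other 4 groups.

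The 12 genes that were not tested in any table had at most 0.221 FPKM. They include Atp6v1b1 and Atp6v1g3, pump subunits known from the kidney, Atp6v1e2, known from the testis, and Atp6v0d2, known from osteoclasts. The others are Lamp3, Ctse, Ctsg, Ctsw and the rodent placental cathepsins Ctsj, Ctsm, Ctsq and Ctsr. Of the 12, 7 had 0 FPKM in all 6 groups, Atp6v1b1, Atp6v1g3 and Ctsg among them.

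Several loci hold more than the gene they are named for. The locus of Atp6v0b also names Dph2 in all 3 tables, and that of Atp6v0a4 also names D630045J12Rik. For 10 of the 34 members the locus ran over 10 kb beyond the RefSeq gene in 1 or more tables, including Atp6v1b2, Atp6v1d, Atp6v1g2, Ctsa, Ctsb and Ctsz. Reads of neighbouring genes in such a locus cannot be told apart from those of the member. Ctsd, the main aspartic cathepsin, stands on a locus named together with Ifitm10, which the symbol rule does not take. Its level was 183 and 196 FPKM in saline and cocaine at 2 h, 183 and 179 at 24 h, then 193 and 194 at 7 d.

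At 2 h the members lay close to saline. Of the 34, 14 were lower in cocaine, where 45.6% of all tested genes were, and the median difference was 0.02 on the log2 scale, the same as over all tested genes. Of the members, 30 lay within 10% of saline, a share that was not computed for all tested genes. Past the fold were 2 members, both higher in cocaine, Atp6v0e and Atp6v0a4. Among all tested genes 14.7% were past the fold, 8.01% upward and 6.69% downward.

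Atp6v0e, a small subunit of the membrane sector, had 20.5 FPKM in saline and 24.9 FPKM in cocaine at 2 h, a difference of 0.27. At 24 h it had 22.3 and 22.2 FPKM, so that the 2 h cocaine value was the highest of the 4 taken on its own locus. Atp6v0a4, the a isoform known from kidney acid secretion, had 6.08 and 7.54 FPKM at 2 h on its merged locus, a difference of 0.27, and 5.25 and 5.54 FPKM at 24 h. Both differences were close to the limit of 0.263 that stands for 1.2-fold. Neither gene was past the fold once the ratios were centred on all tested genes.

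Of the cathepsin and LAMP genes, Ctso, a cysteine cathepsin, lay farthest from saline at 2 h, with 10.7 and 12.2 FPKM, a difference of 0.17. It had 11.5 and 11.1 FPKM at 24 h, and its 7 d difference was 0.06, so that its 2 h values spanned the other 4.

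The 10 V1 genes tested at 2 h had a median difference of -0.02, and 7 of them were lower in cocaine. Tcirg1, the a3 isoform of the membrane sector, which the symbol rule does not take, had 3.03 FPKM in saline and 2.30 FPKM in cocaine at 2 h, a difference of -0.29. It had 3.33 and 2.63 FPKM at 24 h and 2.80 and 2.71 FPKM at 7 d. In the same 2 h table the 5 tested red blood cell markers were all past the fold and higher in cocaine, with a summed level of 323 FPKM in saline and 504 FPKM in cocaine, and all 6 markers of astrocytes and all 6 of endothelium were higher in cocaine. The part of these cells in the values of the members was not tested.

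At 24 h the pump genes lay on a different side of saline from the cathepsin and LAMP genes, by small amounts. Of the 20 tested pump genes 5 were lower in cocaine, with a median of 0.04, whereas of the 13 cathepsin and LAMP genes 11 were lower, with a median of -0.05. Among all tested genes 47.9% were lower, and the median was 0.01. Of other lysosomal hydrolases 19 of 33 were lower at 24 h, with a median of -0.01. Further lysosomal membrane and cofactor genes were lower in 13 of 23, and genes of lysosome biogenesis and sorting in 6 of 13. Of the 33 members 30 were within 10% of saline, a share again not computed for all tested genes. Past the fold was 1 member, where 9.22% of all tested genes were past it, 4.75% upward and 4.47% downward. This was Atp6ap1l, a paralogue of the pump's accessory subunit, with 5.56 FPKM in saline and 7.04 FPKM in cocaine, a difference of 0.30.

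Among the cysteine cathepsins 8 of 9 were lower in cocaine at 24 h. Ctss, the cathepsin of microglia and other antigen-presenting cells, had 59.9 FPKM in saline and 51.4 FPKM in cocaine, a difference of -0.22. Its other 4 values lay between 59.8 and 64.0 FPKM, so that the 24 h cocaine group was the lowest of the 6. Ctsc, which activates granule serine proteases, had 3.69 and 2.99 FPKM, a difference of -0.23, and its other 4 values lay between 3.56 and 4.20 FPKM. With them, 7 of 10 microglial markers were lower in cocaine at 24 h (summed level 261 FPKM in saline and 246 in cocaine), and so were 5 of 6 astrocyte markers. Of the oligodendrocyte markers 5 of 6 were lower too, with a summed level of 716 FPKM in saline and 595 in cocaine. No tested marker of these lists stood at 0, and their part in the cathepsin values was not tested.

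Ctsf and the serine carboxypeptidase Ctsa, known as protective protein of the lysosome, were the members higher in cocaine among the cathepsins at 24 h. Ctsf had 20.9 and 22.8 FPKM and Ctsa 37.5 and 40.7 FPKM. Both were nearly level at 2 h, with 21.9 and 22.5 FPKM for Ctsf and 38.9 and 38.5 FPKM for Ctsa. Lamp1, Lamp2 and Lamp5 were all lower in cocaine at 24 h, with differences of -0.05, -0.07 and -0.01.

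At 7 d the pump genes were lower in cocaine as a group. Of the 19 tested pump genes 17 were lower, with a median of -0.15, where 51.3% of all tested genes were lower and the median was -0.01. All 9 V1 genes were lower, with a median of -0.23 and a range from -0.28 to -0.11. Of all 32 tested members 24 were lower, with a median of -0.11. Past the fold were 5, each of them a pump gene lower in cocaine, Atp6v0b, Atp6v1g1, Atp6v1h, Atp6v1f and Atp6ap1l. Among all tested genes 15.9% were past the fold at 7 d, 9.62% downward and 6.27% upward, so the count of 5 of 32 is near the share of all genes. Transcript length moved with the 7 d differences (rho of 0.41 across genes), and with the length trend taken out none of the 5 calls remained. Against the mean saline of 2 h and 24 h, centred on all genes, 1 member was past the fold, beside 7.23% of all genes. This was Atp6v0a1, not among the 5, with 91.4 FPKM in 7 d cocaine against 126 and 128 FPKM in saline at 2 h and 24 h. Its 7 d saline value, 84.2 FPKM, was lower still, so at 7 d itself this gene was higher in cocaine. The median of the members on this reference was -0.019.

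**Figure D2:**
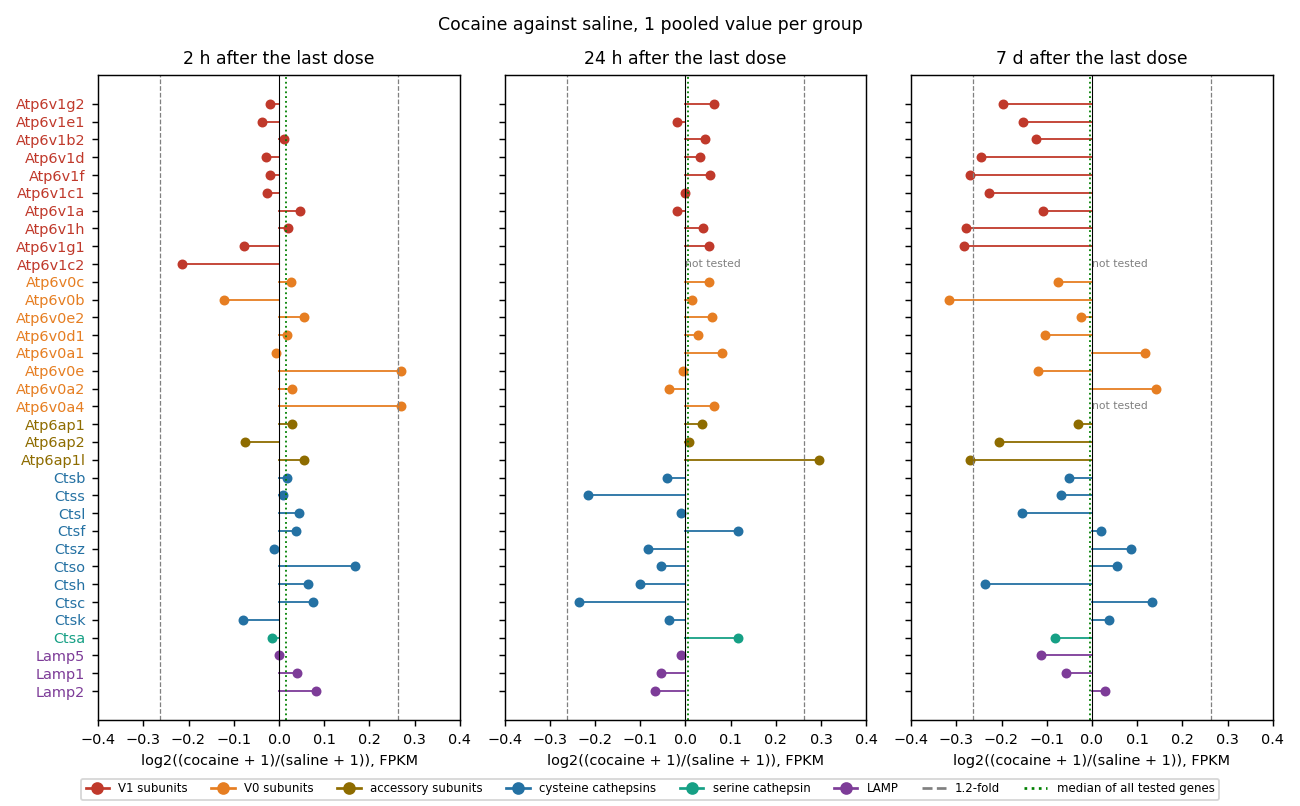
Difference between cocaine and saline for each of the 34 genes at 2 h, 24 h and 7 d, as log2((cocaine + 1)/(saline + 1)) of pooled FPKM; dashed lines mark 1.2-fold and the dotted line the median of all tested genes. At 7 d all 9 V1 genes lie to the left of 0, between -0.28 and -0.11, while at 2 h and 24 h the 9 lie between -0.08 and 0.06.

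Within the V1 sector, Atp6v1g1, the G subunit of the stator stalk, had 73.6 and 69.7 FPKM in saline and cocaine at 2 h, 68.3 and 70.8 at 24 h, then 81.9 and 67.1 at 7 d. The 7 d difference was -0.28. The 7 d saline value was the highest and the 7 d cocaine value the lowest of the 6, although the tables were normalized separately.

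Atp6v1h, the H subunit, which halts ATP splitting in pumps whose sectors have come apart, had 83.2 and 84.3 FPKM at 2 h, 88.1 and 90.6 at 24 h, then 99.5 and 81.9 at 7 d, a 7 d difference of -0.28. Atp6v1f, a subunit of the rotor, had 145 and 143 FPKM at 2 h, 145 and 150.3 at 24 h, then 180.5 and 149 at 7 d, a 7 d difference of -0.27. For Atp6v1f the 7 d cocaine value lay within the 4 earlier values, and the 7 d saline value lay above all of them. Atp6v1h also had its highest value in 7 d saline, but its 7 d cocaine value was the lowest of the 6.

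The other V1 genes followed with smaller differences at 7 d. Atp6v1d, which forms the central shaft of the rotor, had 201 FPKM in saline and 169.5 FPKM in cocaine, a change of -15.7%. Atp6v1c1, the main C subunit, which is released when the sectors part, had 144 and 122 FPKM, a change of -14.8%. Atp6v1g2, the most abundant V1 gene, had 304 and 300.1 FPKM at 2 h, 302 and 316 at 24 h, then 319.8 and 279 at 7 d. Its 7 d change was -12.8%, and its 7 d cocaine value was the lowest of the 6 and its 7 d saline value the highest.

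Atp6v1e1, a stalk subunit, had 314 and 282 FPKM at 7 d. The pair that forms the catalytic head had the smallest differences of the 9 before the length trend was taken out, though not after, with 248 and 228 FPKM for Atp6v1b2 and 109.9 and 102 FPKM for the ATP-splitting Atp6v1a. For Atp6v1a the saline values of 2 h and 24 h, 102 and 113 FPKM, already lay farther apart than saline and cocaine did at 7 d. In the other 8 V1 genes the 7 d gap was wider than that between the saline groups of 2 h and 24 h. The same held for 22 of 31 members measured in all 3 tables under 1 locus name, and for 54% of all genes measured so. At 24 h it held for 2 of 9 V1 genes and 42.6% of all genes, and at 2 h for 3 of 9 V1 genes and 50.5% of all genes.

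**Figure D3:**
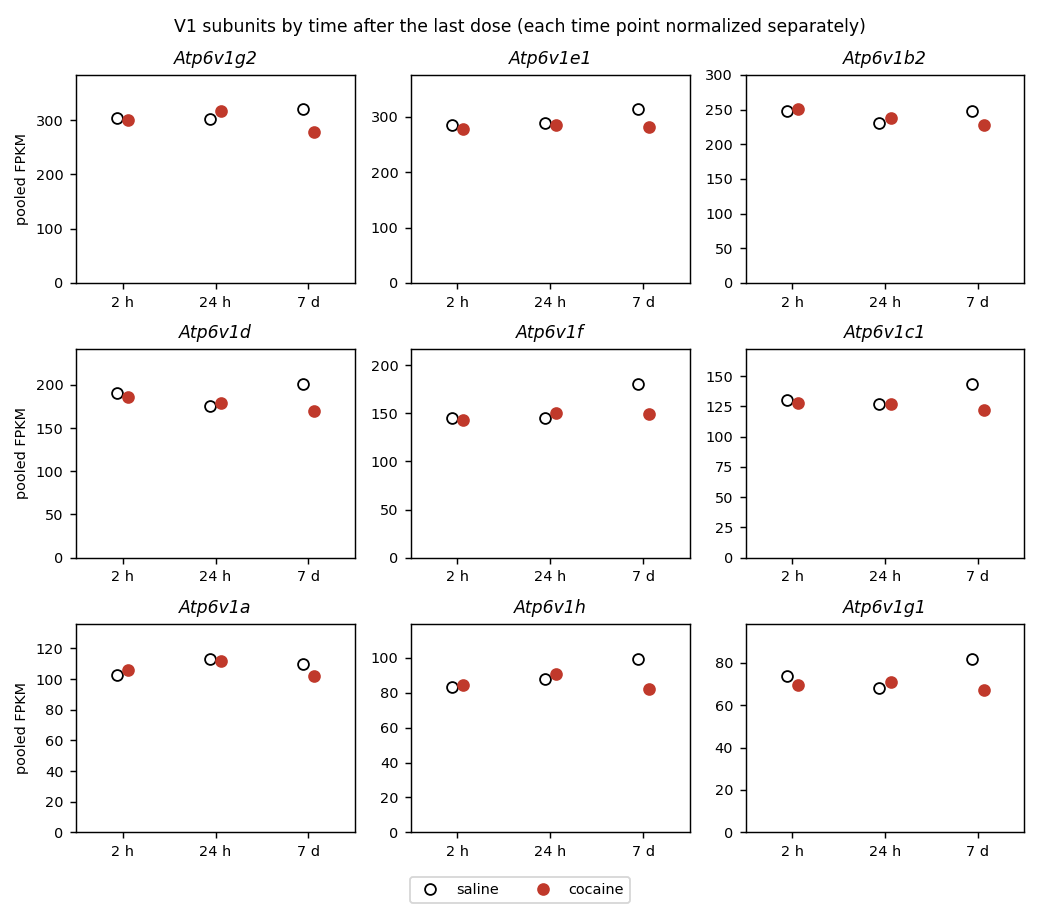
Pooled FPKM (vertical axes from 0) of the 9 V1 genes tested in all 3 tables, against time after the last dose, with saline as open and cocaine as filled circles. In each panel the points nearly coincide at 2 h and 24 h and part at 7 d, where saline is the upper point, for example 180.5 against 149 FPKM for Atp6v1f.

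In the membrane sector 5 of 7 tested genes were lower in cocaine at 7 d, with a median of -0.08. With the length trend taken out 3 of the 7 were lower and 4 higher, with a median of 0.04. Atp6v0b, the other proteolipid of the rotor ring, had 196 and 180.4 FPKM at 2 h, 191 and 193 at 24 h, then 248 and 199 at 7 d on its merged locus. The 7 d difference of -0.32 was the most negative of all members at 7 d, and 7 d saline was again the highest of the 6 values. The 7 d locus of Atp6v0b was also shorter than the earlier ones, which ran over 10 kb beyond the gene.

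Atp6v0c, the partner of Atp6v0b in the ring, had a 7 d difference of -0.08, and Atp6v0d1, which links the ring to the shaft, had 137 and 127 FPKM, a change of -7.04%. Atp6v0a1 and Atp6v0a2, alternative forms of the subunit that holds the proton path, were higher in cocaine at 7 d. Atp6v0a1 had 84.2 FPKM in saline and 91.4 FPKM in cocaine, and Atp6v0a2 had 9.70 and 10.8 FPKM. Both 7 d values of Atp6v0a1 lay below its 4 earlier values of 125 to 136 FPKM, and both of Atp6v0a2 lay below its earlier values of 11.6 to 12.8 FPKM.

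The accessory genes were all lower in cocaine at 7 d. Atp6ap1, which helps the membrane sector assemble, had 167 and 170.3 FPKM at 2 h, 156 and 159.7 at 24 h, then 168 and 165 at 7 d. Atp6ap2, the prorenin receptor, had 105 and 91.0 FPKM at 7 d, a difference of -0.21. Atp6ap1l had 6.57 and 6.87 FPKM at 2 h and 6.45 and 5.18 at 7 d, a 7 d difference of -0.27. Atp6ap1l was thus past the fold upward at 24 h and downward at 7 d, at a level below 10 FPKM.

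The cathepsins and LAMP genes lay around saline at 7 d. Of the 9 cysteine cathepsins 4 were lower, with a median of 0.02. Ctsb, the most abundant of them and a broad endopeptidase, had 131 and 132 FPKM at 2 h, 134 and 130.1 at 24 h, then 138 and 133 at 7 d. Its 6 values stayed within this narrow band, and its 7 d difference was -0.05. Ctsh, an aminopeptidase, was the lowest at -0.24, with 11.6 and 9.69 FPKM, and Ctsc the highest at 0.13, with 3.56 and 4.01 FPKM.

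Ctsl, which cuts proteins in many cell types, had 44.3 FPKM in saline and 39.7 FPKM in cocaine at 7 d, against 37.8 to 39.0 FPKM in the 4 earlier groups. Here too the 7 d saline value was the one that stood apart. Ctsa had 37.8 and 35.6 FPKM at 7 d, a difference of -0.08. Ctss had 62.8 and 59.8 FPKM at 7 d, when 6 of 10 microglial markers were lower in cocaine at a summed level of 264 FPKM in saline and 260.4 in cocaine.

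Lamp5, known from cortical neurons, was the most abundant LAMP gene, with 239.8 and 239.7 FPKM at 2 h, 222 and 221 at 24 h, then 237 and 219 at 7 d. Lamp1, the general lysosomal membrane protein, had 145 and 139 FPKM at 7 d, and Lamp2, which serves in chaperone-mediated autophagy, had 29.3 and 29.9 FPKM. The median of the 3 LAMP genes at 7 d was -0.06. Their differences at the 3 times spanned only -0.11 to 0.08.

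Length was set against the 7 d values in more detail. The log2 ratio of 7 d cocaine to the mean saline of 2 h and 24 h had a rho of -0.05 with the length of the longest annotated transcript, against the -0.45 of 7 d saline. The 7 d difference between cocaine and saline had a rho of 0.41 with length, against 0.15 at 2 h and 0.08 at 24 h. These correlations are across genes of the same libraries, which are not independent. The median length was 1976 nt for the V1 genes and 2820 nt for all genes with a length.

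With the median of genes of like length taken out at 7 d, all 9 V1 genes were still lower in cocaine, now from -0.26 to -0.05 with a median of -0.14, and none was past the fold. Atp6v1d, whose longest transcript has 3583 nt, was the lowest at -0.26, followed by Atp6v1h at -0.23. Atp6v1f, at 703 nt, went from -0.27 to -0.11 and Atp6v1e1, at 1203 nt, from -0.15 to -0.05. Atp6v0b went from -0.32 to -0.20, and Atp6v0c from -0.08 to 0.04. Of the 32 members 20 remained lower, and 0 were past the fold, where 9.54% of all genes with a length were past it either way.

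**Figure D4:**
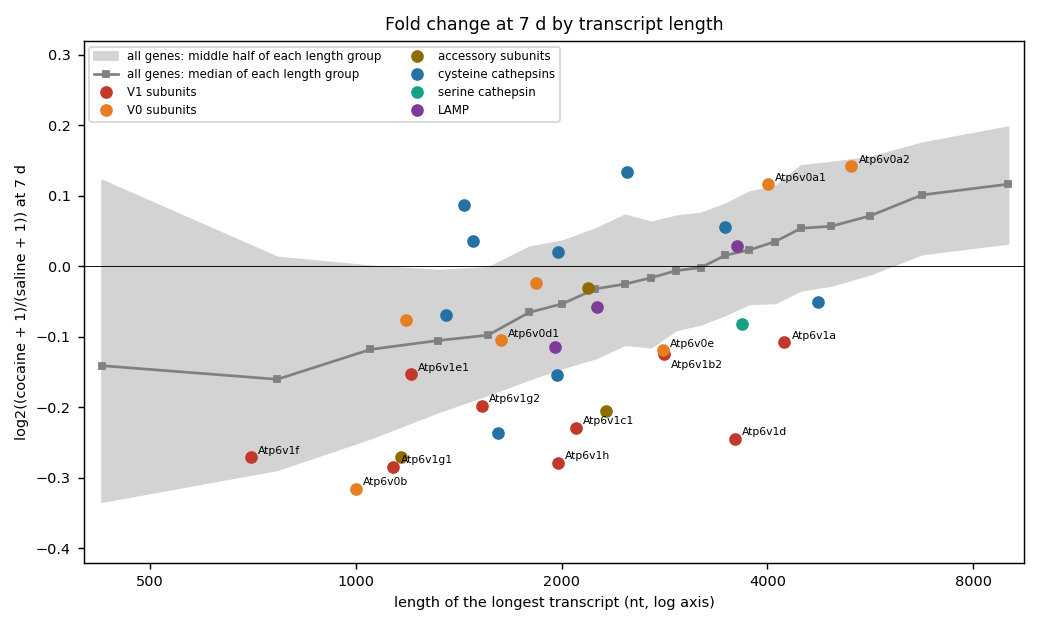
Difference at 7 d, as log2((cocaine + 1)/(saline + 1)), against the length of the longest annotated transcript (nt, log axis) for the 32 tested genes; the grey line joins the medians of 20 groups of all genes by length, and the grey band covers the middle of each group from its lower to its upper quartile. All 9 V1 genes lie below the line, Atp6v1d at 3583 nt and Atp6v1h at 1976 nt the farthest, while Atp6v0a1 and Atp6v0a2 lie above it.

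Against the mean saline of 2 h and 24 h, the 9 V1 genes had a median of 0.14 in 7 d saline and of -0.07 in 7 d cocaine. In 7 of the 9 the 7 d saline value was the highest of the 6 groups, as in 14 of 31 members and 25% of 14176 genes measured in all 3 tables. In 7 of the 9 the 7 d cocaine value was the lowest of the 6, as in 14 of the 31 members and 17.1% of those genes. Both held for 5 V1 genes, Atp6v1c1, Atp6v1d, Atp6v1g1, Atp6v1g2 and Atp6v1h. The share of all genes for which both held was not computed, so this count has no background beside it. The locus of Atp6v1d ran 94.1 kb beyond the gene at 2 h and 24 h but 0.011 kb at 7 d, so its ranks compare unlike loci. For Atp6v1e1 and Atp6v1f only the saline value lay outside the 4 earlier values, and for Atp6v1a and Atp6v1b2 only the cocaine value did. The tables were normalized separately, so such levels across tables are a description only.

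Neuronal markers were mixed at 7 d. Of the 6 tested, 1 was lower in cocaine, and their summed level was 3069 FPKM in saline and 3123 FPKM in cocaine. The sum rests mostly on genes that went opposite ways. Snap25, the lower marker and the most abundant, had 1581 FPKM in saline and 1453 FPKM in cocaine, and Camk2a had 844 and 999 FPKM. The length trend was not taken out of the markers. All 6 astrocyte markers were higher in cocaine at 7 d, at 830.1 FPKM in saline and 902 FPKM in cocaine. All 5 tested red blood cell markers were higher too, 2 of them past the fold, at 452 FPKM in saline and 529 FPKM in cocaine. Of the choroid plexus markers 3 of 4 tested were higher, with Ttr at 0.284 FPKM in saline and 6.54 FPKM in cocaine. Kl and Kcnj13 differed by 0.15 and 0.06 only. Folr1 went the other way past the fold, with 0.668 FPKM in saline and 0.290 FPKM in cocaine. The part of cell makeup in the pump values was not tested.

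Other genes of the lysosome were described from lists by role. Factors for assembly and regulation of the pump, such as Vma21, Ccdc115 and Tmem199, were lower in 8 of 11 tested at 7 d, with a median of -0.08 and none past the fold. This was not particular to 7 d. At 2 h 9 of 11 were lower, with a median of -0.06 and 1 past the fold, and at 24 h 4 of 10, with a median of 0.03. The list also holds Tcirg1, which is a subunit isoform. The lists below are given for 7 d. Other lysosomal hydrolases were lower in 17 of 32, with a median of -0.00. Further membrane and cofactor genes were lower in 12 of 22, with a median of -0.02, and genes of lysosome biogenesis and sorting, such as Tfeb and M6pr, in 6 of 13, with a median of 0.01. The medians of the hydrolase, membrane and biogenesis lists thus lay near that of all genes, -0.01, but the length trend was not taken out of them. In the biogenesis list the 6 lower genes, Gnptg and Lamtor1 to Lamtor5, had longest transcripts of 668 to 1330 nt. The 7 higher genes had 2342 to 8887 nt, so the median of this list lay between short lower genes and long higher genes. No gene of these lists was past the fold at 2 or more time points.

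The cystatins, which inhibit cysteine cathepsins, were lower in cocaine in 3 of 3 tested at 7 d, with a median of -0.34. Cstb, the cytosolic cystatin, had 28.3 and 32.1 FPKM at 2 h, 29.6 and 26.8 at 24 h, then 39.8 and 31.2 at 7 d. Cst3, the secreted and most abundant form, had 1531 and 1734 FPKM at 2 h, 1634 and 1549 at 24 h, then 1866 and 1602 at 7 d. Both were higher in cocaine at 2 h and lower at 24 h and 7 d, and both had their highest value in 7 d saline. Their longest transcripts, at 599 nt for Cstb and 860 nt for Cst3, are short. Cst6 had 1.51 and 0.944 FPKM at 7 d.

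Lysosomal genes often carry the palindrome CACGTG before their start, as part of the motif that the factor TFEB binds. Promoter sequences of RefSeq on GRCm38.p6 were at hand for 26 of the 34 members, and the 250 bases before each start were searched on both strands. The hexamer CACGTG stood in 6 members, Atp6v0b, Atp6v1a, Ctsa, Ctsf, Ctsl and Lamp1, and in 6.86% of all 27025 genes. The longer TCACGTG, which contains it, stood in 4 members and 3.58% of all genes. TCACGTGA stood in Atp6v1a and Ctsa and in 0.907% of all genes. At 7 d the members with the hexamer had a median difference of -0.09, with 5 of 6 lower in cocaine, and the tested members without it had a median of -0.07, with 12 of 18 lower. The 8 members without a promoter sequence are in neither set. Among them are Atp6v1g1, Atp6v1h and Atp6ap1l, each past the fold and lower in cocaine at 7 d.

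The promoters printed here are those of a V1 gene, a V0 gene and a cathepsin with the motif, and that of Atp6v1f, a gene past the fold at 7 d in which the hexamer was not found. Each runs 5′ to 3′ on the strand of the gene and ends at the base before the annotated start. Capitals mark the hexamer with those of its flanking bases that belong to TCACGTG or TCACGTGA. In Atp6v1a, on the minus strand at chr16:44139260-44139509, the hexamer begins at position -131, counted back from the start. In Atp6v0b, on the minus strand at chr4:117887330-117887579, it stands 2 times. In Ctsa, on the plus strand at chr2:164833523-164833772, it begins at position -12, while the 250 bases before the other annotated start of Ctsa hold it 0 times. The Atp6v1f promoter lies on the plus strand at chr6:29467533-29467782.
Atp6v1a: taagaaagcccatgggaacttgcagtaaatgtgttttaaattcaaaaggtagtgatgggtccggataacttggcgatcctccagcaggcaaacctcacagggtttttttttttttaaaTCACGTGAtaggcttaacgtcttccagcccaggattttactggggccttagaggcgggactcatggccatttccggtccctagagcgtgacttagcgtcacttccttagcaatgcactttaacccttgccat
Atp6v0b: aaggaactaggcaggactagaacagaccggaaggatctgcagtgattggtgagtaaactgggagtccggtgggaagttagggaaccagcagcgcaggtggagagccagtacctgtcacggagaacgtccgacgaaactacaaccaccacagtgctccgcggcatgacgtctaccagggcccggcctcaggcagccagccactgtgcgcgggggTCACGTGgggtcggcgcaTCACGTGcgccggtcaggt
Ctsa: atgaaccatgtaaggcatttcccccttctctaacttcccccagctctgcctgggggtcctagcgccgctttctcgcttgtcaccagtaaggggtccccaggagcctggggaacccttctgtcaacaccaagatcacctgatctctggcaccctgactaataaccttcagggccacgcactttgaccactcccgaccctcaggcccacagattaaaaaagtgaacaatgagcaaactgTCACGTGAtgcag
Atp6v1f: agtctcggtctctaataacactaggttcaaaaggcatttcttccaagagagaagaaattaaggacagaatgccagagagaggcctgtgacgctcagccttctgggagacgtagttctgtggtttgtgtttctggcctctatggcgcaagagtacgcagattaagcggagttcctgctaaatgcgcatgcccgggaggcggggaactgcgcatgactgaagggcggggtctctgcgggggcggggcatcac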

How the data were processed

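RNA-seq of mouse prefrontal cortex gave 12 libraries in 6 groups. The submitters' processing notes name CASAVA 1.8.2, Trimmomatic 0.32, TopHat2 2.0.12 and Cufflinks 2.2.1 with Cuffdiff. The authors deposited 1 table per time point, whose FPKM values pool both libraries of each group. The tables also hold the authors' fold changes, test statistics, p-values and q-values, which were not used. The columns name their groups by short codes, which the labels use in more than one way. Saline and cocaine were therefore told apart by the headings and values of the study's supplementary gene lists. Positions are 1-based on GRCm38, the build of the notes, and all 34 members overlapped the RefSeq gene of their symbol there, while the methods name mm9.

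Only loci tested by Cuffdiff (status OK) were kept. A name with more than 1 tested locus was represented by its longest locus, as for 3 members at 24 h. Ratios carry a pseudocount of 1 FPKM and were compared with all tested genes. With 1 pooled value per group no test was possible, and the depth is unknown. Transcript lengths were those of the longest GENCODE M1 transcript, found for 94.4% to 95.1% of named genes, and the trend was the median of 20 groups of like length. Every member was named, with all tested values for those past 1.2-fold and the most abundant of each role. Members and lists were chosen with earlier results of these data known. Scripts used Python 3.11.15, pandas 2.3.3, numpy 2.4.6, scipy 1.17.1 and matplotlib 3.10.9, and were tested on simulated data.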

Additional observations from a re-analysis of the deposited data

How the results depend on the processing

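Of 90 values computed under alternatives, 72 stayed within 1.5 times the count or 0.05 of the median, and 18 moved. Some of the 72 could not move, since a change of pseudocount leaves every member on its side of saline. For the medians near 0 at 2 h and 24 h, the margin of 0.05 also counts a change of sign as unmoved. The tally is therefore no measure of how robust the results are. At 2 h the count of 2 members past 1.2-fold became 0 when the ratios were centred or the length trend was taken out, 1 with only loci that name 1 gene, 4 at 1.1-fold and 0 at 1.5-fold. At 24 h the count of 1 became 2 with a pseudocount of 0.1 FPKM and 2 with none, 3 at 1.1-fold and 0 at 1.5-fold. At 7 d the count of 5 became 0 with the length trend taken out, 13 at 1.1-fold (12 lower, 1 higher) and 0 at 1.5-fold. Against the centred mean saline of 2 h and 24 h it became 1, which was Atp6v0a1 and not among the 5. This gene was lower on that reference but higher in cocaine than in 7 d saline. This reference brought the median from -0.11 to -0.019. For the V1 genes the count of 3 became 0, 7, 0 and 0 under the same 7 d settings in the same order. Among all tested genes 37.6% at 2 h, 27.8% at 24 h and 42.2% at 7 d were past 1.1-fold. Past 1.5-fold were 2.98%, 2.58% and 3.25%. With the length trend taken out 11.1% were past 1.2-fold at 2 h and 9.54% at 7 d. The share was 14.6% at 2 h when centred and 14.9% with 1-gene loci. At 24 h it was 17.6% with a pseudocount of 0.1 FPKM and 18.0% with none. The settings with 1-gene loci and with the earlier saline groups were chosen after seeing the data. All 9 V1 genes stayed lower at 7 d with the length trend taken out, and 8 were lower against the earlier saline groups. The settings of pseudocount, filter and locus could not change the direction of these genes. Centring moved the ratios by too little to do so. No paired analysis was possible because each deposited value is pooled over the libraries of its group, and for the same reason no library could be left out. What depth limits is unknown, since the tables hold no counts.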

Other observations

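Laptm5, a lysosomal membrane protein of blood-derived cells and microglia, was the only gene of the membrane list past 1.2-fold at 7 d, with 15.6 FPKM in saline and 20.2 FPKM in cocaine. It had 22.5 and 20.3 FPKM at 24 h. At 24 h, 3 members stood on a second, shorter tested locus, with 0.349 and 0.612 FPKM for Atp6v1c1, 0.677 and 0.451 for Atp6v1g1, and 2.24 and 2.38 for Atp6v0e2 in saline and cocaine. These genes were singled out after their values were seen.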
